A study of Mus musculus with 12 samples.

Results

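The genes described here are 34 interferon response genes, followed through the colons of 2-week-old mice. They were taken by symbol from a fixed list, from Isg15 and the Ifit, Oas and Mx genes to the factors Irf7, Irf9 and Stat2. All 34 were found among the 35688 genes of the table, and all 34 passed the filter on low values that left 13293 genes for testing. The groups were 5 Il10-/- colons and 6 Il10-/- Tnfr1-/- colons, each the full-thickness colon of 1 mouse aged 2 weeks. Interleukin 10, a cytokine that restrains inflammation, was lacking in every animal, and the second group also lacked TNF receptor 1, encoded by Tnfrsf1a. There was no colon with intact Il10, so no value here says how far the response lay from that of a healthy colon. The labels do not give strain, sex, litter or how each allele was made.

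Type I interferons signal through a receptor made of the IFNAR1 and IFNAR2 chains, and type III interferons through IFNLR1 paired with IL10RB, a chain that the interleukin 10 receptor also uses. Both receptors activate the kinases JAK1 and TYK2, and a complex that holds STAT2 and IRF9 then binds interferon-stimulated response elements in the promoters of antiviral genes. In the adult gut, epithelial cells respond mainly to type III interferon, and immune and stromal cells mainly to type I.

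The promoters of a subset of these genes are shown because the response element is the feature through which they are known to be induced together. The motif searched, spelled in the form that such elements share, was GAAANNGAAA on either strand, which reads TTTCNNTTTC on the other, with overlapping matches counted. RefSeq promoter windows of 300 bases, from 250 before to 50 after the start on build GRCm38.p6, were matched for 24 of the 34 genes. The genes with no matched window were Dhx58, Zbp1, Oas2, Usp18, Mx1, Mx2, Rtp4, Ifi27, Parp9 and Parp14. The motif was found in 13 of the 24, and in 3.99% of the 27025 genes with a window. It occurred at least 2 times in 7 of the 24, and in 0.225% of all windows. The stretches of 8 members below lie upstream of the start, outside annotated exons, and run 5′ to 3′ along the gene, with capitals marking the motif.
Isg15, chr4:156200819-156200968, minus strand: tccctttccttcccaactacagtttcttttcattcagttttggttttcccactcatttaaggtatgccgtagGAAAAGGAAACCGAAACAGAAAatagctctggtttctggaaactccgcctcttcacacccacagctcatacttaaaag
Ifit1, chr19:34640744-34640870, plus strand: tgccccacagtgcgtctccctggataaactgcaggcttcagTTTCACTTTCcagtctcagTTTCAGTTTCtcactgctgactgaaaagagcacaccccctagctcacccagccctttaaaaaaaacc
Ifit3, chr19:34583379-34583528, plus strand: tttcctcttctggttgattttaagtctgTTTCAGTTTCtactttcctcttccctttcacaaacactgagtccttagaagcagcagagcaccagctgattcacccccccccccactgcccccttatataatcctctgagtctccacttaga
Oas3, chr5:120777662-120777795, minus strand: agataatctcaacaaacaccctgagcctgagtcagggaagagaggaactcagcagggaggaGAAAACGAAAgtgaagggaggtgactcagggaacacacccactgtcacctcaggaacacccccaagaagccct
Oas1a, chr5:120907526-120907675, minus strand: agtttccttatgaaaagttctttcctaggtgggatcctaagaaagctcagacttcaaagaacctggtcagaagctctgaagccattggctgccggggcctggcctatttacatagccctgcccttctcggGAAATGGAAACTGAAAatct
Oas1g, chr5:120887614-120887763, minus strand: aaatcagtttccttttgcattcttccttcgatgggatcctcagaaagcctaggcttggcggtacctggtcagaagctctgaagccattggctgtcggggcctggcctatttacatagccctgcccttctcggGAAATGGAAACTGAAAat
Rsad2, chr12:26456453-26456602, minus strand: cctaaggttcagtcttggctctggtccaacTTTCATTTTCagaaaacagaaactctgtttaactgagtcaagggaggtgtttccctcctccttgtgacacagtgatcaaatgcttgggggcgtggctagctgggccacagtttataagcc
Bst2, chr8:71537473-71537622, minus strand: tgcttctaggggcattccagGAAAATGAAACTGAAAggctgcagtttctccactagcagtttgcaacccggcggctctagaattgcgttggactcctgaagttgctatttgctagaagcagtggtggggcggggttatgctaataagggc
Isg15 carried 3 overlapping copies, and Bst2, Oas1a and Oas1g each had an overlapping pair. The Oas1a and Oas1g stretches shared an identical run of 56 bases that holds the pair. No match was found in the windows of Oasl1, Oasl2, Irf7, Irf9, Trim25, Ifit2, Cmpk2, Ifi44, Ifi35, Xaf1 and Lgals3bp, which says only that these letters are not in those windows.

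Several members lie near each other on build mm10. Oas2, Oas3, Oas1g and Oas1a sit on chromosome 5 between 120730333 and 120907521, all on the minus strand. Ifit2, Ifit3 and Ifit1 lie in that order on chromosome 19 from 34550694 to 34650009. Rsad2 and Cmpk2 are neighbours on opposite strands of chromosome 12, from 26442746 to 26479837. Mx1 and Mx2 share chromosome 16, from 97447035 to 97560900.

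The libraries were checked first. Tnfrsf1a lay between 30.6 and 78.1 in Il10-/- colons and between 12.0 and 17 in Il10-/- Tnfr1-/- colons on the deposited abundance scale, with no overlap (log2 fold change -1.60, exact two-sided permutation p = 0.00216, the smallest these samples allow). Among names that start with 1 the log2 fold change was -1.83, and the 3 against 2 samples there cannot give an exact p below 0.1. The epithelial markers of colon were present in every sample. Replicates are numbered in sample order and pair nothing across genotypes. The design text names 1 mouse per sample, and the samples carry names whose first digit has no stated meaning: 1 for Il10-/- replicates 1, 2 and 3 and Il10-/- Tnfr1-/- replicates 1 and 2, 2 for Il10-/- Tnfr1-/- replicates 3 and 4, 3 for Il10-/- Tnfr1-/- replicates 5 and 6, and 4 for Il10-/- replicates 5 and 6. Fewer cells of a type and less RNA per cell cannot be told apart in these whole-colon values.

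High and low levels of the interferon response genes were found in single colons of both genotypes. Il10-/- Tnfr1-/- replicate 6 had the highest value of 21 of the 34 genes, and Il10-/- Tnfr1-/- replicate 4, of the same genotype, had the lowest value of 19. Over all tested genes those samples were highest for 12.7% and lowest for 7.13%. Il10-/- replicate 6 was highest for 8 members, Il10-/- replicate 1 for 4 and Il10-/- Tnfr1-/- replicate 4 for 1. The shares were near or below those over all tested genes for Il10-/- replicate 6 (23.5% of members and 19.8% of genes) and Il10-/- replicate 1 (11.8% and 17.4%). Il10-/- replicate 2 was lowest for 8 members (23.5% of members and 3.19% of genes), and all 34 lay below their own mean there.

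**Figure D1:**
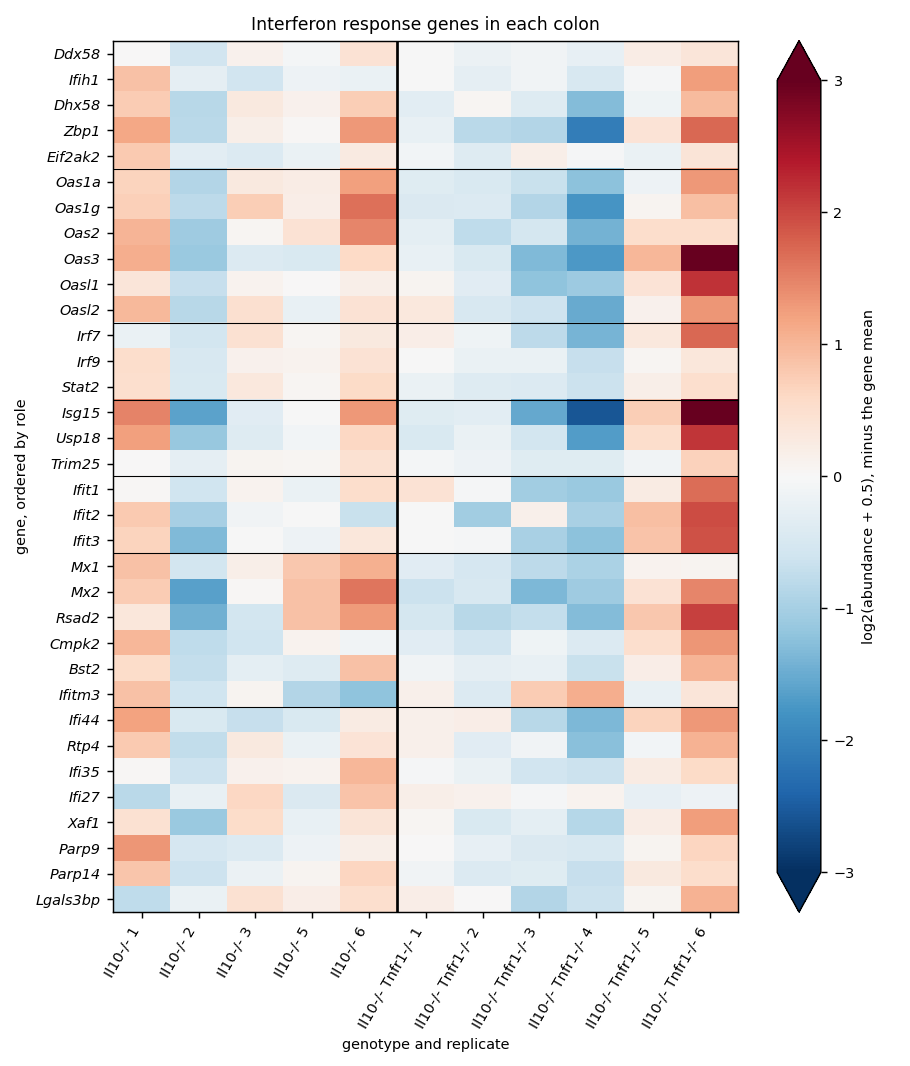
Each row is a gene and each column a colon, and colour is log2(abundance + 0.5) minus the gene's mean over the 11 samples, saturated beyond 3. Il10-/- Tnfr1-/- replicate 6 is above the gene's mean for 33 of 34 genes, while Il10-/- Tnfr1-/- replicate 4 is below it for 32 and Il10-/- replicate 2 for all 34.

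The mean centred log2 level of the 34 genes put each colon on one scale. It was 0.62, -0.76, 0.02, 0.00 and 0.58 in Il10-/- replicates 1, 2, 3, 5 and 6. It was -0.09, -0.33, -0.53, -0.96, 0.27 and 1.20 in Il10-/- Tnfr1-/- replicates 1 to 6. Both genotypes thus held high and low colons, and the Il10-/- Tnfr1-/- group held both extremes. By name, the 2 colons that start with 2 were low and the 2 that start with 3 were the highest of their genotype, so that the first digit and the level of these genes moved together within Il10-/- Tnfr1-/-. The part of the digit in this was not tested.

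The spread of the members was wide beside that of other genes. The SD within genotypes on the log2 scale had a median of 0.71 over the members and 0.41 over all tested genes, and 30 of 34 members lay above that 0.41. In Il10-/- colons the medians were 0.69 and 0.44. In Il10-/- Tnfr1-/- colons they were 0.74 and 0.35, and without replicate 6 they were 0.54 and 0.30. From the lowest to the highest sample, 11 members spanned over 10-fold. The median mean abundance was 21 for members and 11.8 for tested genes.

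Between genotypes, no member passed the test. Limma with Benjamini-Hochberg adjustment called 0 of 34 members, as it called 0 of 13293 genes (0.0%), and the members' adjusted p lay between 0.535 and 0.99. The deleted gene Tnfrsf1a was not called by this test either, at an adjusted p of 0.123. At an unadjusted p under 0.05 there was 1 member, Mx1, against 8.4% of all tested genes (3.6% lower and 4.81% higher in Il10-/- Tnfr1-/-). In 0 of 34 members did the genotypes separate without overlap, against 0.587% of tested genes. The median log2 fold change was -0.10 over the members and 0.05 over all tested genes. On this scale 24 members had a lower and 10 a higher mean in Il10-/- Tnfr1-/- colons, and the means called lower or higher below are of log2 values. Means of the abundances themselves, on which single high colons weigh more, were lower for 19 and higher for 15. With an equal total per sample the split was 16 lower and 18 higher, at a median of 0.03 against 0.18 over all genes. Among names that start with 1, with 3 Il10-/- and 2 Il10-/- Tnfr1-/- colons, 29 members could be tested, 22 had a lower mean and the median was -0.20, against -0.04 over all genes. There 0 members had an unadjusted p under 0.05, against 1.06% of genes.

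**Figure D2:**
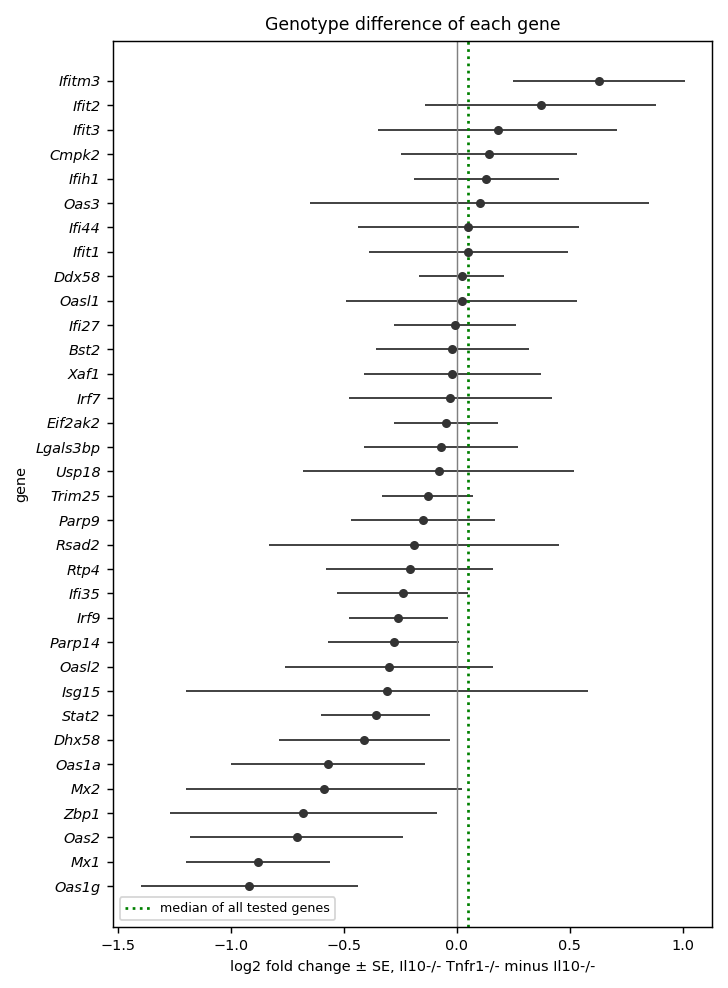
Points are log2 fold changes on the log2(abundance + 0.5) scale, Il10-/- Tnfr1-/- minus Il10-/-, with bars of 1 SE (5 and 6 samples). They run from -0.92 for Oas1g to 0.63 for Ifitm3, and the dotted line is the median of all tested genes, 0.05.

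Single colons decided the balance of signs. Without Il10-/- Tnfr1-/- replicate 6 the median of the members was -0.37, 31 of 34 had a lower mean, and 5 (Mx1, Oas1a, Oas1g, Stat2 and Zbp1) had an unadjusted p under 0.05, all lower, where 9.95% of all tested genes did. Without Il10-/- replicate 2 it was -0.30 with 31 lower and 4 such members (Mx1, Oas1g, Oas2 and Stat2), where 12.9% of all tested genes did. Without Il10-/- replicate 1 there were 2 such members, Mx1 lower and Ifitm3 higher, where 18.5% of all tested genes passed. Without Il10-/- replicate 6 the median was 0.03 with 0 such members, against 3.59% of genes, and without Il10-/- Tnfr1-/- replicate 4 it was 0.04 with Mx1 alone, against 5.86%. With the mean log2 level of the smooth muscle markers as a covariate, the median of the members was 0.13. In that fit 9 members had a lower and 25 a higher mean, and 0 had such a p, against 4.57% of genes. Limma's adjusted call gave 0 members each time.

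The ligands of the pathway were nearly absent. Of 20 type I and III interferon genes in the table, 17 were listed at 0 in every colon, Ifnb1 and both type III genes, Ifnl2 and Ifnl3, among them. Of the remaining 3, Ifnk reached 0.15 in Il10-/- replicate 5, Ifna16 reached 0.0482 in Il10-/- Tnfr1-/- replicate 3 and Ifnz reached 0.31 in Il10-/- Tnfr1-/- replicate 6. Depth is unknown here, so a value of 0 gives no upper limit. Ifng, the type II interferon, lay between 0.0 and 0.519.

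Receptors and kinases were present in these colons. Of 6 genes (Ifnar1, Ifnar2, Ifnlr1, Il10rb, Jak1 and Tyk2) 0 had an unadjusted p under 0.05, and their median log2 fold change was 0.21. Ifnar2, the gene of smallest p, lay between 6.11 and 9.95 in Il10-/- and between 7.49 and 13.1 in Il10-/- Tnfr1-/- colons (log2 fold change 0.39 ± 0.19, SE, limma adjusted p = 0.535). The ratio of Il10-/- Tnfr1-/- replicate 6 to the median of that genotype's other colons was 0.81 for Ifnar2.

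Among the transcription factors, Stat2 and Irf9 varied less than Irf7. Stat2, which joins IRF9 in the interferon-activated complex, was at 22.4, 11.2, 19.3, 16.1 and 23.2 in Il10-/- and at 13.5, 11.8, 11.5, 9.67, 17.5 and 22.1 in Il10-/- Tnfr1-/- colons. Irf9, the DNA-binding part of that complex, spanned 2.39-fold over all colons and Stat2 2.40-fold. Irf7, the factor that amplifies interferon production, was at 47.4, 37.2, 75.1, 57.2 and 67.6 in Il10-/- and at 62.6, 50.1, 31.3, 20.6, 68.0 and 182 in Il10-/- Tnfr1-/- colons. Its span was 8.85-fold, and the Il10-/- Tnfr1-/- range reached below and above the Il10-/- range (log2 fold change -0.03 ± 0.45, SE, limma adjusted p = 0.981).

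Isg15 had the second largest span of all members, after Oas3. It encodes a ubiquitin-like protein that is attached to other proteins and also secreted. Its abundance was 50, 5.46, 13.7, 17.3 and 44.3 in Il10-/- replicates 1, 2, 3, 5 and 6. In Il10-/- Tnfr1-/- replicates 1 to 6 it was 13.6, 13.9, 5.76, 2.53, 29.5 and 167, so that the last colon stood 65.9-fold above the fourth. The log2 fold change was -0.31 ± 0.89 (SE), with a limma adjusted p of 0.883. Usp18, which removes ISG15 and restrains the type I receptor, ran in the same order of extremes, from 0.918 in Il10-/- Tnfr1-/- replicate 4 to 19.6 in replicate 6, while the ISG15 and ubiquitin ligase gene Trim25 stayed between 21.9 and 46.5.

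**Figure D3:**
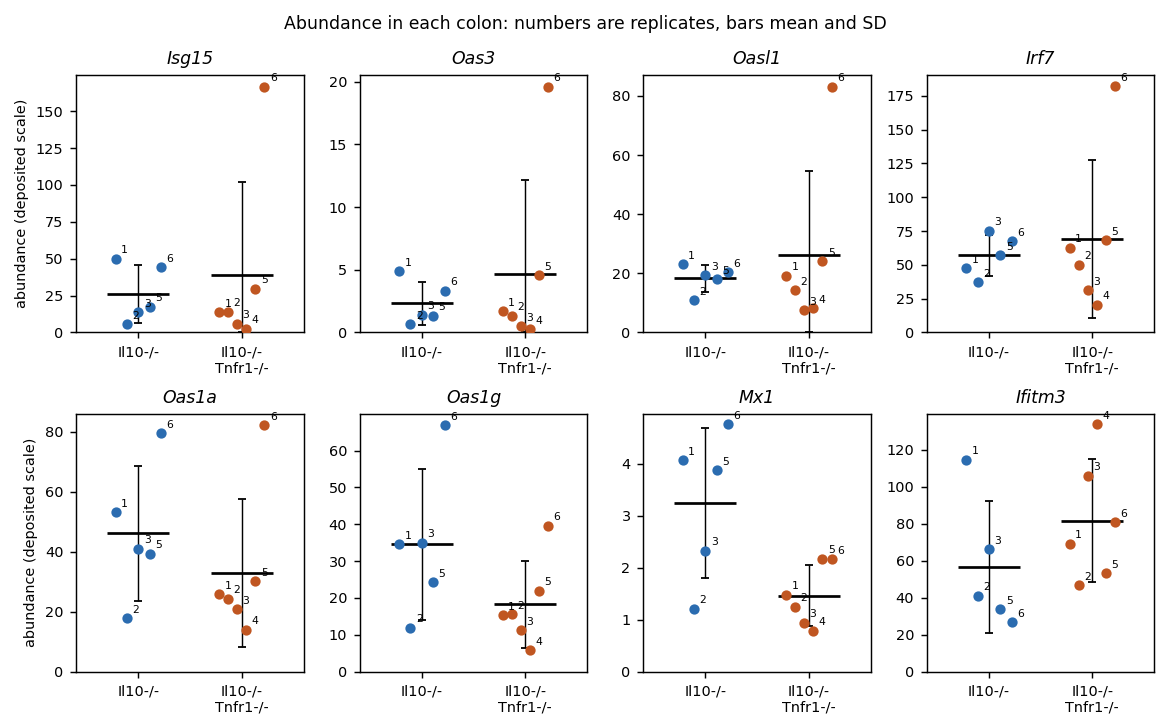
Dots are the abundance of 8 genes in each colon on the deposited scale, with replicate numbers, and bars are the mean and SD (5 Il10-/- and 6 Il10-/- Tnfr1-/- samples), with lower bars ended at 0. Il10-/- Tnfr1-/- replicate 6 stands above every other colon for Isg15, Oas3, Oasl1 and Irf7 and not for Oas1g, Mx1 or Ifitm3.

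The oligoadenylate synthetases sense double-stranded RNA and make the messenger that activates RNase L, and Oasl1 and Oasl2 encode related proteins. Oas3 was at 4.86, 0.664, 1.40, 1.34 and 3.33 in Il10-/- and at 1.67, 1.34, 0.506, 0.265, 4.56 and 19.6 in Il10-/- Tnfr1-/- colons, a span of 73.9-fold. Oasl1, which restrains the translation of Irf7, was at 23.1, 10.9, 19.3, 18.0 and 20.4 and at 19.2, 14.2, 7.53, 8.19, 24.1 and 83.1. Replicate 6 of Il10-/- Tnfr1-/- therefore stood 4.03-fold and 3.60-fold above the highest Il10-/- colon for these genes. It did not for Oas1g, at 34.6, 11.9, 35.0, 24.2 and 66.9 in Il10-/- and 15.3, 15.6, 11.2, 5.77, 22 and 39.6 in Il10-/- Tnfr1-/- colons. The log2 fold change of Oas1g was the lowest of the members, -0.92 ± 0.48 (SE, limma adjusted p = 0.535). Oas1a (-0.57) and Oas2 (-0.71) also had lower means, while Oas3 (0.10), Oasl1 (0.02) and Oasl2 (-0.30) lay on either side of 0. Oas1a and Oas1g are close copies: 68.7% of the 31-base words of the leading Oas1a transcript occur in Oas1g, and the split of reads between them is uncertain.

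The Ifit genes encode proteins that bind foreign RNA. All 3 had a higher mean in Il10-/- Tnfr1-/- colons, and all 3 lost or nearly lost that sign without replicate 6. The lowest leave-one-out log2 fold changes, found there, were -0.28 for Ifit1, 0.01 for Ifit2 and -0.19 for Ifit3. Other colons mattered too: without Il10-/- replicate 2 the values were -0.09 for Ifit1, 0.17 for Ifit2 and -0.13 for Ifit3. Without Il10-/- Tnfr1-/- replicate 1 Ifit1 was at -0.03. Ifit2 was at 18.9, 5.19, 9.96, 10.8 and 6.68 in Il10-/- and at 10.7, 5.02, 12.2, 5.29, 20.8 and 43.6 in Il10-/- Tnfr1-/- colons. Its log2 fold change was 0.37 ± 0.51 (SE), with a limma adjusted p of 0.747. Ifit3 shares 61.8% of its 31-base words with Ifit3b, so its division of reads is uncertain too. Ifit3b, a list gene outside the members, again reached its highest value, 14.9, in Il10-/- Tnfr1-/- replicate 6.

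Of the sensors, Zbp1, which detects Z-form nucleic acid and can start necroptosis, varied most, at 65.7, 16.5, 32.9, 30.2 and 73.1 in Il10-/- and at 25.0, 16.5, 15.6, 6.51, 39.3 and 97.1 in Il10-/- Tnfr1-/- colons. Its log2 fold change was -0.68 ± 0.59 (SE, limma adjusted p = 0.611). Ifih1, the RNA sensor MDA5, lay between 9.19 and 13.7 in 9 of the 11 colons, and at 26.0 in Il10-/- replicate 1 and 34.0 in Il10-/- Tnfr1-/- replicate 6. Ddx58, the RNA sensor RIG-I, and Eif2ak2, the kinase PKR, spanned 2.12-fold and 2.38-fold. Dhx58, which encodes the RIG-I relative LGP2, ranged from 1.78 to 10.3.

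Among antiviral effectors, Mx1 came closest to a genotype difference. It encodes a dynamin-like GTPase that blocks viral replication and is defective in many laboratory strains. Mx1 was at 4.07, 1.21, 2.33, 3.88 and 4.76 in Il10-/- and at 1.48, 1.25, 0.940, 0.789, 2.17 and 2.16 in Il10-/- Tnfr1-/- colons. Only Il10-/- replicate 2 lay within the Il10-/- Tnfr1-/- range. The log2 fold change was -0.88 ± 0.32 (SE), with a limma adjusted p of 0.535. It was -0.48 with the smooth muscle level as a covariate, -0.56 on the leading transcript alone and -0.59 among names that start with 1. Mx2, its neighbour, was at 3.25 ± 2.39 (SD, n = 5) and 2.02 ± 2.14 (SD, n = 6), and Rsad2, which encodes viperin, at 2.82 ± 2.12 and 2.94 ± 3.68. Cmpk2, a mitochondrial nucleotide kinase, and Bst2, which tethers budding virus, had log2 fold changes of 0.14 and -0.02.

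Ifitm3 did not follow the other effectors. It encodes a membrane protein that blocks virus entry, and stromal cells express it widely. It was at 115, 41.1, 66.2, 33.9 and 26.8 in Il10-/- and at 69.3, 46.8, 106, 134, 53.4 and 80.9 in Il10-/- Tnfr1-/- colons. Its highest value was in Il10-/- Tnfr1-/- replicate 4, the colon lowest for 19 other members, and its lowest in Il10-/- replicate 6. The log2 fold change of 0.63 ± 0.38 (SE) was the highest of the members (limma adjusted p = 0.536), and it was -0.25 among names that start with 1. The summed smooth muscle markers were 8010 and 7144 in Il10-/- Tnfr1-/- replicates 3 and 4 and 184.4 and 201.3 in Il10-/- replicates 5 and 6, the colons highest or lowest for Ifitm3 apart from Il10-/- replicate 1. The sum ran from 184.4 to 3506 in Il10-/- and from 827.7 to 8010 in Il10-/- Tnfr1-/- colons. All 10 markers had a higher mean in Il10-/- Tnfr1-/- colons, 9 with an unadjusted and 0 with an adjusted p under 0.05 by limma. With the mean log2 level of these markers, not their sum, as a covariate the log2 fold change of Ifitm3 was 0.04 in place of 0.63 (limma adjusted p = 0.992).

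The other induced genes had log2 fold changes between -0.28 and 0.05. Lgals3bp, which encodes a secreted glycoprotein, lay between 141.9 and 537.6, and Ifi27 between 34.4 and 109.2. Neither followed the shared order in Il10-/- replicate 1, where both were under the median of the other Il10-/- colons, at ratios of 0.466 and 0.478. Parp9 and Parp14, PARP family genes, had log2 fold changes of -0.15 and -0.28. Xaf1, Rtp4, Ifi35 and Ifi44 had -0.02, -0.21, -0.24 and 0.05.

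The 3 highest colons differed in which genes stood out. The ratio of Il10-/- Tnfr1-/- replicate 6 to the median of its genotype's other colons was 14.6 for Oas3, 12.2 for Isg15, 9.76 for Rsad2 and 6.97 for Usp18, and it was 1.46 for Irf9, 1.41 for Ddx58 and Eif2ak2, and 0.842 for Ifi27. It exceeded the highest Il10-/- value more than 2-fold for 7 members: Oas3, Oasl1, Isg15, Irf7, Ifit3, Ifit2 and Ifit1, a group picked out after its values were seen. For Il10-/- replicate 6 the ratio within its genotype was highest for Rsad2 (2.89), Isg15 (2.85) and Oas2 (2.59), and it was 0.645 for Ifit2. For Il10-/- replicate 1 it was highest for Ifi44 (4.08) and Oas3 (3.55), followed by Isg15 (3.22).

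**Figure D4:**
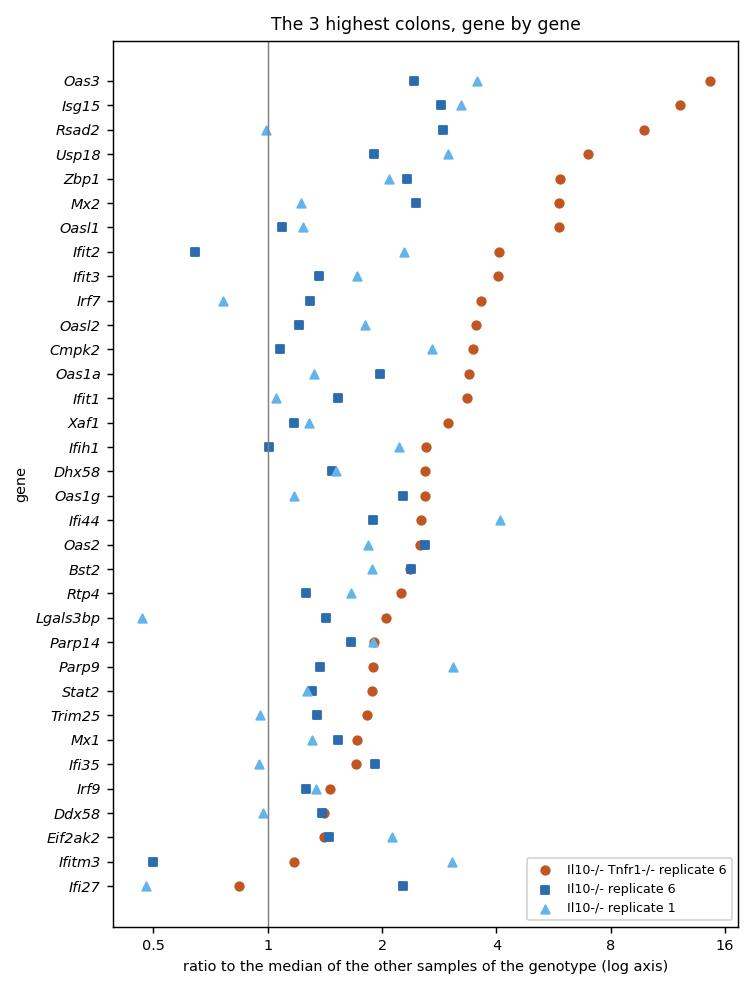
Points give each gene's abundance in a colon divided by the median of the other colons of its genotype, on a log axis, for Il10-/- Tnfr1-/- replicate 6, Il10-/- replicate 6 and Il10-/- replicate 1. They lie above 1 for 33, 32 and 27 of the 34 genes.

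Summed markers of cell types also varied between colons, and no list matched the order of the interferon genes in full. The highest epithelial sums lay in Il10-/- Tnfr1-/- replicate 6 (48529.6), Il10-/- replicate 6 (12580.9), Il10-/- Tnfr1-/- replicate 5 (11154.3) and Il10-/- replicate 1 (10732.7). Those colons also had the highest mean centred levels of the interferon genes, 1.20, 0.58, 0.27 and 0.62. Lower down the orders differed: Il10-/- replicate 3 had a low epithelial sum, 6768.7, at a level of 0.02. Il10-/- Tnfr1-/- replicate 6 had a summed epithelial marker level of 48529.6, against 5360 to 12581 in all other colons, and 32159.5 of it was Car1, a carbonic anhydrase of mature colonocytes that lay between 131.3 and 3564 elsewhere. Of the 9 epithelial markers, 7 had a lower and 2 a higher mean in Il10-/- Tnfr1-/- colons. Il10-/- replicates 1 and 6 had the highest summed neutrophil markers, 523.9 and 401.7, against 4.30 to 156.9 in all other colons. The sum was 52.7 in Il10-/- Tnfr1-/- replicate 6. Of 4 tested neutrophil markers, 3 had a lower and 1 a higher mean in Il10-/- Tnfr1-/- colons. By limma 3 had an unadjusted p under 0.05, where 8.4% of all tested genes did, and 0 an adjusted one. The leukocyte, T cell and B cell markers were highest in Il10-/- Tnfr1-/- replicates 2 and 3 (282.3 and 190 for leukocytes), whose interferon gene levels were below the mean. The summed macrophage markers lay between 42.3 and 63.9 in Il10-/- and between 54.8 and 117.8 in Il10-/- Tnfr1-/- colons, and all 7 had a higher mean in the latter. They were highest in Il10-/- Tnfr1-/- replicate 3, at 117.8, followed by replicate 6, at 91.2. The 7 markers of plasmacytoid dendritic cells, strong producers of type I interferon, summed to between 317.7 and 619.7 in Il10-/- and between 340.5 and 891.1 in Il10-/- Tnfr1-/- colons, with 340.5 in replicate 6. Of the 4 of them that could be tested, 2 had a lower and 2 a higher mean. Siglech, a marker on the same list, lay only between 0.166 and 1.62 over all colons. These sums therefore came almost wholly from the other markers, and what they say of the number of such cells was not tested. The part of these cell types in the interferon gene levels was not tested.

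Among the other genes of the pathway, limma called 0 after adjustment, and the counts at an unadjusted p below stand beside 8.4% of all tested genes, 3.6% lower and 4.81% higher. Of 11 tested sensors and adaptors upstream of interferon, 1, Irf5, had an unadjusted p under 0.05, with a higher mean in Il10-/- Tnfr1-/- colons (log2 fold change 0.74 ± 0.34, SE). Of 12 brakes on the response, 2 did, both with a lower mean: Socs3, the inhibitor of cytokine signalling (-1.64 ± 0.52, SE), and Rnaseh2a, a subunit of the enzyme that removes RNA from DNA (-0.62 ± 0.27, SE). Socs3 was at 134.8, 19.1, 26.2, 30.0 and 67.5 in Il10-/- and at 8.13, 17.1, 6.06, 34.7, 15.6 and 11.7 in Il10-/- Tnfr1-/- colons. It was highest in Il10-/- replicates 1 and 6, the colons highest for neutrophil markers, and was not raised in Il10-/- Tnfr1-/- replicate 6. Of 38 other tested interferon-induced genes, 1, Parp12, had such a p, with a lower mean (-0.60 ± 0.24, SE), and the median of the list was 0.10. Of 5 tested genes of interferon gamma signalling there were 0, and Irf1, of smallest p, had a log2 fold change of -0.48 ± 0.31 (SE). The adjusted p by limma was 0.535 for Irf5, Socs3, Rnaseh2a and Parp12 and 0.548 for Irf1.

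For some members, the colon with the highest value depended on the transcript class. The 34 genes had 156 transcripts in the table, of which 72 are classed as protein coding, 44 as retained introns, 28 as processed transcripts and 10 as targets of nonsense-mediated decay. Another 1 is of the polymorphic pseudogene class, and 1 was not matched to a class. The leading transcript was protein coding for 27 members and of another class for 7 (Ddx58, Oas1g, Oas2, Oasl2, Mx1, Mx2 and Ifi27). Over whole libraries the share of abundance on protein-coding transcripts lay between 63.5% in Il10-/- replicate 3 and 74.8% in Il10-/- replicate 1. For Ddx58 the share was 54.1% in Il10-/- replicate 1 and 8.88% in Il10-/- replicate 6. Ddx58 was thus highest in Il10-/- replicate 6 when all transcripts were summed, at 10.4, and lowest in that same colon on coding transcripts, at 0.924. Oas2 was highest in Il10-/- replicate 6 as a sum, at 6.37, and in Il10-/- replicate 1 on coding transcripts, at 4.05.

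**Figure D5:**
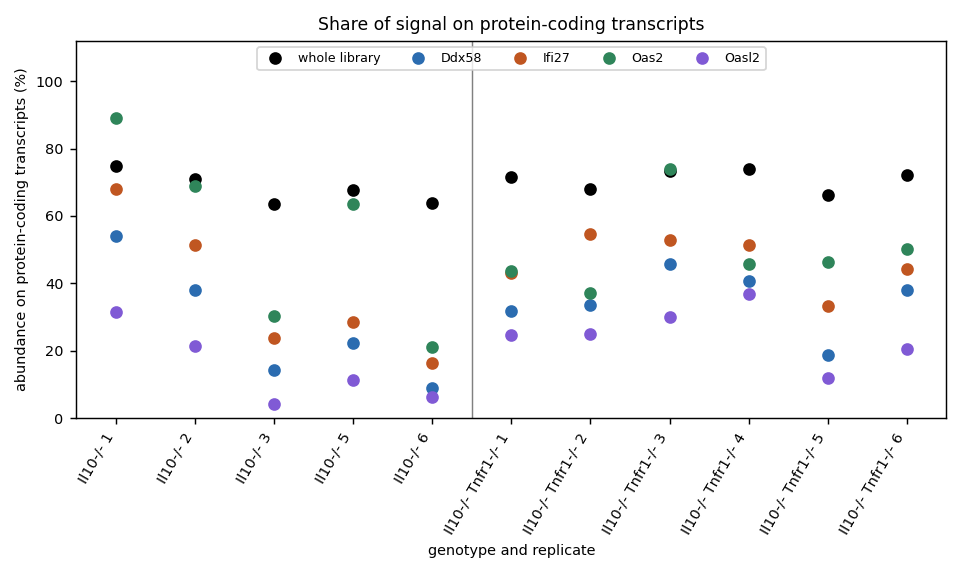
Each dot is the percent of abundance on transcripts classed as protein coding in 1 colon, for the whole library (black) and for Ddx58, Ifi27, Oas2 and Oasl2. The single genes move far more than the library, whose share stays between 63.5% and 74.8%.

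On coding transcripts alone, a choice made after seeing these shares, 31 members could be tested. The 3 that could not, because of the filter on low values, were Mx1, Mx2 and Oas2, and Mx1 is the member with an unadjusted p under 0.05 over all transcripts. Mx2 is classed as a polymorphic pseudogene, and its coding value was 0.0 in every colon but Il10-/- replicate 6, at 4.67e-06. The median log2 fold change was -0.04 against 0.12 over all genes, 19 had a lower mean, and 0 of these 31 had an unadjusted p under 0.05, against 8.1% of the genes tested so. Il10-/- Tnfr1-/- replicate 6 was then highest for 22 of 34 members and Il10-/- Tnfr1-/- replicate 4 lowest for 18. Il10-/- replicate 6 was highest for 3 in place of 8, and Mx2, at 4.67e-06, was among those 3. The spread remained, with a median SD of 0.70 over members and 0.42 over genes. Oasl2 went from -0.30 to 0.64 and Ifi27 from -0.01 to 0.46.

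The authors' deposited table gives 89 of the 156 transcripts a p-value. In it 2 (2.25%) have a p-value under 0.05, against 6.83% of the 43192 transcripts tested, and the lowest q-value is 0.684. Those 2, in the authors' deposited table, are a coding transcript of Lgals3bp with a log2 fold of 0.96 and a transcript of Mx1 of the nonsense-mediated decay class with -1.47.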

How the data were processed

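Whole-colon RNA was read as stranded single-end mRNA libraries, per the labels' protocols. CASAVA, kallisto and sleuth, with build mm10, are named without versions per the submitters' processing notes. The deposited per-library values are a scaled signal per transcript that the authors computed: not counts, with library sums of 804109 to 1378971. The authors' deposited mean is a natural log, as the tool named in the notes writes it, with no unit in the file headers; that mean over the abundance rose with transcript length with a log slope of 1.18 over 22783 transcripts, so the abundances are taken as scaled by length. They do not give depth, so no interval for counting error could be set. The p-value, q-value, fold ratio and log2 fold deposited by the authors are quoted only as theirs, per the file headers.

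Of 12 samples, 11 had a column that matches their title. 1 column of per-sample values matched none, and Il10-/- replicate 4 is not analysed here. After 866 repeated rows were dropped, 113193 transcripts (96.6% matched to GENCODE M21) were summed by gene identifier. Limma 3.58.1 (R 4.3.3, and data.table, version 1.17.8; trend and robust moderation) was fitted on log2(value + 0.5) to the 13293 genes over 1 in at least 6 samples, and checked on simulated data. Since 1 group has 5 samples, a gene over 1 in Il10-/- alone was left out. Fold changes understate low genes. P-values are two-sided, adjusted over all genes, with a threshold of 0.05. The members, lists and tests were chosen with earlier results of these data known. Named genes are all members, Tnfrsf1a, and of each pathway list those with an unadjusted p under 0.05 or else the one of smallest p; others are given as values only. 1 gene of the pathway lists is not reported here, and its list is described without it. Alternatives covered the pseudocount, filter, scaling, transcript choice, a smooth muscle covariate, names that start with 1 and each sample left out.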

Additional observations from a re-analysis of the deposited data

Results flagged for a closer look

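A lone sample stood apart from its group, by the gap to its nearest neighbour over the range of the group on the log2 scale, in 3 of 68 groups examined, where chance gives about 5%. Ifih1 was far above the rest in Il10-/- replicate 1, at 26.0 (gap 0.718 of the range), and in Il10-/- Tnfr1-/- replicate 6, at 34.0 (gap 0.735). Trim25 was far above the rest in Il10-/- Tnfr1-/- replicate 6, at 46.5 (gap 0.720).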

How the results depend on the processing

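Limma's count of members called after adjustment was 0 in all 21 alternatives. The count at an unadjusted p under 0.05 was 1, and 0 among names that start with 1, with the smooth muscle covariate and on coding transcripts, where Mx1 could not be tested; it ran from 0 to 5 with a sample left out. The list median lay between -0.20 and 0.13 in the alternatives that leave out no single sample and between -0.37 and 0.04 with a sample left out. The log2 fold change of Tnfrsf1a was -1.83 among names that start with 1, where the exact permutation p cannot go below 0.1, and -1.74 to -1.41 with a sample left out; no covariate fit was made for it. Of 34 members, 27 changed sign at least 1 time, and none of them was called in any setting. With a pseudocount of 0.1 the changed signs were Oas3 -0.01. With median-ratio size factors the changed signs were Ifit1 -0.02, Ddx58 -0.04 and Oasl1 -0.04. With an equal total per sample the changed signs were Trim25 0.01, Eif2ak2 0.09, Irf7 0.12, Usp18 0.04, Lgals3bp 0.07, Xaf1 0.12, Bst2 0.12 and Ifi27 0.13. With quantile normalization the changed signs were Cmpk2 -0.03, Ifi44 -0.10, Oas3 -0.01, Lgals3bp 0.06, Ddx58 -0.10, Oasl1 -0.10 and Ifi27 0.09. On the leading transcript the changed signs were Trim25 0.05, Irf7 0.28, Ifi44 -0.03 and Oasl1 -0.83. Among names that start with 1 the changed signs were Ifi35 0.04, Cmpk2 -0.33, Ifitm3 -0.25, Irf7 0.13, Ifih1 -0.16, Lgals3bp 0.27, Oasl1 -0.04, Ifit2 -0.42 and Ifi27 0.28. With the smooth muscle covariate the changed signs were Trim25 0.11, Ifi35 0.13, Dhx58 0.02, Rsad2 0.73, Parp9 0.08, Mx2 0.26, Irf7 0.47, Oasl2 0.01, Usp18 0.64, Rtp4 0.02, Lgals3bp 0.31, Parp14 0.00, Isg15 0.90, Xaf1 0.17 and Bst2 0.33. On coding transcripts, a setting added once the data had been seen, the changed signs were Irf7 0.11, Ifi44 -0.03, Oasl2 0.64 and Ifi27 0.46. Leaving out each sample in turn gave these ranges: Cmpk2 -0.11 to 0.41, Rsad2 -0.62 to 0.10, Parp9 -0.30 to 0.16, Eif2ak2 -0.16 to 0.14, Irf7 -0.37 to 0.25, Ifih1 -0.12 to 0.36, Ifi44 -0.20 to 0.36, Usp18 -0.52 to 0.25, Oas3 -0.49 to 0.46, Rtp4 -0.43 to 0.03, Lgals3bp -0.29 to 0.10, Ifit1 -0.28 to 0.28, Isg15 -0.98 to 0.18, Ddx58 -0.12 to 0.13, Xaf1 -0.30 to 0.15, Oasl1 -0.41 to 0.26, Bst2 -0.22 to 0.20, Ifi27 -0.21 to 0.20, Ifit3 -0.19 to 0.44. The causes were not tested. No paired analysis was possible because replicate numbers only follow the order of the samples. Without counts, the precision set by depth cannot be given.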

Other observations

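Ifit1bl1 and Ifit1bl2, neighbours of Ifit1 in the list of other induced genes, were chosen here after their values were seen. Ifit1bl1 was at 312 in Il10-/- replicate 1 and between 18.9 and 177.9 elsewhere, while Ifit1bl2 was at 0.741 in Il10-/- replicate 1 and between 4.26 and 21.9 elsewhere. Ifit1bl2 shares 9.16% of the 31-base words of the leading Ifit1 transcript. How reads were divided among these genes was not tested.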
